A study of Mus musculus with 7 samples.

Results

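The 9 genes described here encode ligand-gated cation channels: P2rx1 to P2rx7, the subunits of the P2X receptors for extracellular ATP, and Htr3a and Htr3b, the subunits of the 5-HT3 receptor for serotonin. They were chosen by name, all 9 were found among 19938 genes, and 1 probe set stood for each gene, the one with the highest mean over all arrays. The values came from 7 microarrays of cells of the whole bowel of mouse embryos at embryonic day 17.5, sorted by fluorescence into 4 YFP-positive and 3 YFP-negative samples. All embryos carried Wnt1-Cre and R26R-EYFP. Wnt1-Cre is a recombinase driven by a promoter of the dorsal neural tube and neural crest, and R26R-EYFP makes the yellow fluorescent protein in cells in which Cre has acted and in their descendants. The YFP-positive cells were labelled ENCDC (enteric neural crest-derived cells, which form the neurons and glia of the bowel wall), and the YFP-negative cells non-ENCDC, which is every other sorted cell type of the bowel together. Whether samples within a group were separate embryos or litters, or pools of embryos, is not stated in the labels, so each p-value reflects only the spread between these samples, which may be technical. The study looked for genes enriched in ENCDC that could act late in the development of the enteric nervous system.

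P2X receptors are trimers that open when ATP binds. In the bowel, ATP is released by enteric neurons together with acetylcholine and acts on P2X channels for fast excitation, while P2X channels of other cell types serve smooth muscle, platelets, vessels and macrophages. 5-HT3 receptors are pentamers of the same superfamily as the nicotinic receptors and give fast excitation by serotonin, most of which the bowel makes in enterochromaffin cells of the epithelium. Htr3a can form a channel alone, whereas Htr3b needs Htr3a, and mice have no further 5-HT3 subunit genes.

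Both 5-HT3 genes were higher in YFP-positive cells, Htr3a by 8.90-fold and Htr3b by 2.23-fold. Of the 7 P2X genes 0 were higher and 1, P2rx1, was lower, by 1.46-fold; at an unadjusted p under 0.05, 0 were higher and 3 lower by limma, where 14.9% of all genes were higher and 15.3% lower. Counted over all 9 genes, 2 were higher and 1 lower at a limma adjusted p under 0.05, where 8.39% of all genes tested were higher, 9.11% lower and 17.5% called in either direction. All levels are log2 values from the RMA normalization, all tests are limma's with Benjamini-Hochberg adjustment over the 19938 genes, and a log2 fold change is the YFP-positive mean minus the YFP-negative mean. The median log2 fold change was 0.02 over the 9 genes, -0.10 over the P2X genes and 0.01 over all genes. The labels of the cells were checked against marker lists. All 11 neuron markers and 5 of 6 markers of glia were higher in YFP-positive cells, Gfap being the one that did not pass, and 11 of 11 myeloid markers were lower. Of 10 epithelial markers 0 passed limma's test in either direction (0 higher and 1 lower, Krt18, at an unadjusted p under 0.05), and their mean level spanned 7.49 to 8.60 over the YFP-positive and 8.11 to 8.22 over the YFP-negative arrays. In bulk samples fewer cells of a type and less RNA per cell cannot be told apart.

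Of the 9 genes 5 have an entry in the RefSeq promoter table (build GRCm38.p6). The 150 bases before the annotated gene start are shown for the 4 of these whose YFP-positive and YFP-negative arrays did not overlap. Such a lack of overlap was found in 26.9% of all genes. The windows set the promoter of Htr3b, which was called higher, beside those of 3 P2X genes. Of these P2rx1 was called lower, whereas P2rx4 and P2rx7 had lower levels without passing. Capitals mark the matches to 5 motifs, searched on both strands. Each sequence runs 5′ to 3′ towards its gene. The windows are Htr3b at chr9:48964991-48965140 (minus strand), P2rx1 at chr11:72998906-72999055 (plus strand), P2rx7 at chr5:122643777-122643926 (plus strand) and P2rx4 at chr5:122707368-122707517 (plus strand).
Htr3b: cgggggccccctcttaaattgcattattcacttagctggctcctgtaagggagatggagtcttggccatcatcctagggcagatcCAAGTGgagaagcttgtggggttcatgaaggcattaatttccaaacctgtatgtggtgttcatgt
P2rx1: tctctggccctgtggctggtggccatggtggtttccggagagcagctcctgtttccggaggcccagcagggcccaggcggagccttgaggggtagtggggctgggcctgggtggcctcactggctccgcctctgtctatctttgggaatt
P2rx7: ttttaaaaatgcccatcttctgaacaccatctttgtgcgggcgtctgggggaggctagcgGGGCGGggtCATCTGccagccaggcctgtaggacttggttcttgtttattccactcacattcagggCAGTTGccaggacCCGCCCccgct
P2rx4: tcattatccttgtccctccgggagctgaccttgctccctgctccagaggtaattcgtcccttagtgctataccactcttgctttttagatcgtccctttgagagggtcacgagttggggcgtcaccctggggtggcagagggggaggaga

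The Htr3b window held 1 match to CANNTG, the E-box letters recognised by basic helix-loop-helix factors, 65 to 60 bases before the gene start. The P2rx7 window held 2 matches to CANNTG and 2 to GGGCGG, the GC box. The other motifs searched were the TATA box (TATAAA), the CCAAT box (CCAAT) and a homeodomain core (TAATTA), and none of the 4 windows held them. The P2rx1 and P2rx4 windows held 0 matches to any of the 5, as did the P2rx6 window, which is not shown. Of the windows of 150 bases before the start of all 32843 promoters in the table, 47.7% held the E-box letters, 28.6% the GC box, 24.5% the CCAAT box, 7.58% the TATA box and 2.73% the homeodomain core. No matches overlapped in these windows. The windows had a GC content of 48.7% for Htr3b, 65.3% for P2rx1, 57.3% for P2rx7 and 56.0% for P2rx4, and the median over all promoters was 54.0%. Htr3a and Htr3b are neighbours on chromosome 9 and P2rx7 and P2rx4 on chromosome 5, with 0 other protein-coding genes of the RefSeq table starting between the members of each pair.

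Htr3a, which encodes the subunit that every 5-HT3 channel contains, had log2 levels of 7.95, 7.73, 7.23 and 7.13 on YFP-positive arrays 1 to 4, against 3.95, 4.59 and 4.53 on YFP-negative arrays 1 to 3. The groups lay far apart, and YFP-positive arrays 3 and 4 were the lower members of their group. The mean was 7.51 ± 0.40 (SD, n = 4) in YFP-positive cells and 4.36 ± 0.35 (SD, n = 3) in YFP-negative cells, a log2 fold change of 3.15 ± 0.25 SE (limma adjusted p = 0.000250; 95% interval 2.56 to 3.74). With no detection calls, the YFP-negative level cannot be told from background.

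Htr3b, which encodes the subunit that changes the conductance and pharmacology of the channel, had log2 levels of 6.25, 6.10, 6.10 and 5.86 on YFP-positive arrays 1 to 4, against 4.73, 4.79 and 5.24 on the YFP-negative arrays. All 4 YFP-positive arrays were above all 3 YFP-negative arrays, of which array 3 was the highest. The mean was 6.08 ± 0.16 (SD, n = 4) in YFP-positive cells and 4.92 ± 0.28 (SD, n = 3) in YFP-negative cells, a log2 fold change of 1.16 ± 0.15 SE (limma adjusted p = 0.00197; 95% interval 0.81 to 1.51).

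**Figure D1:**
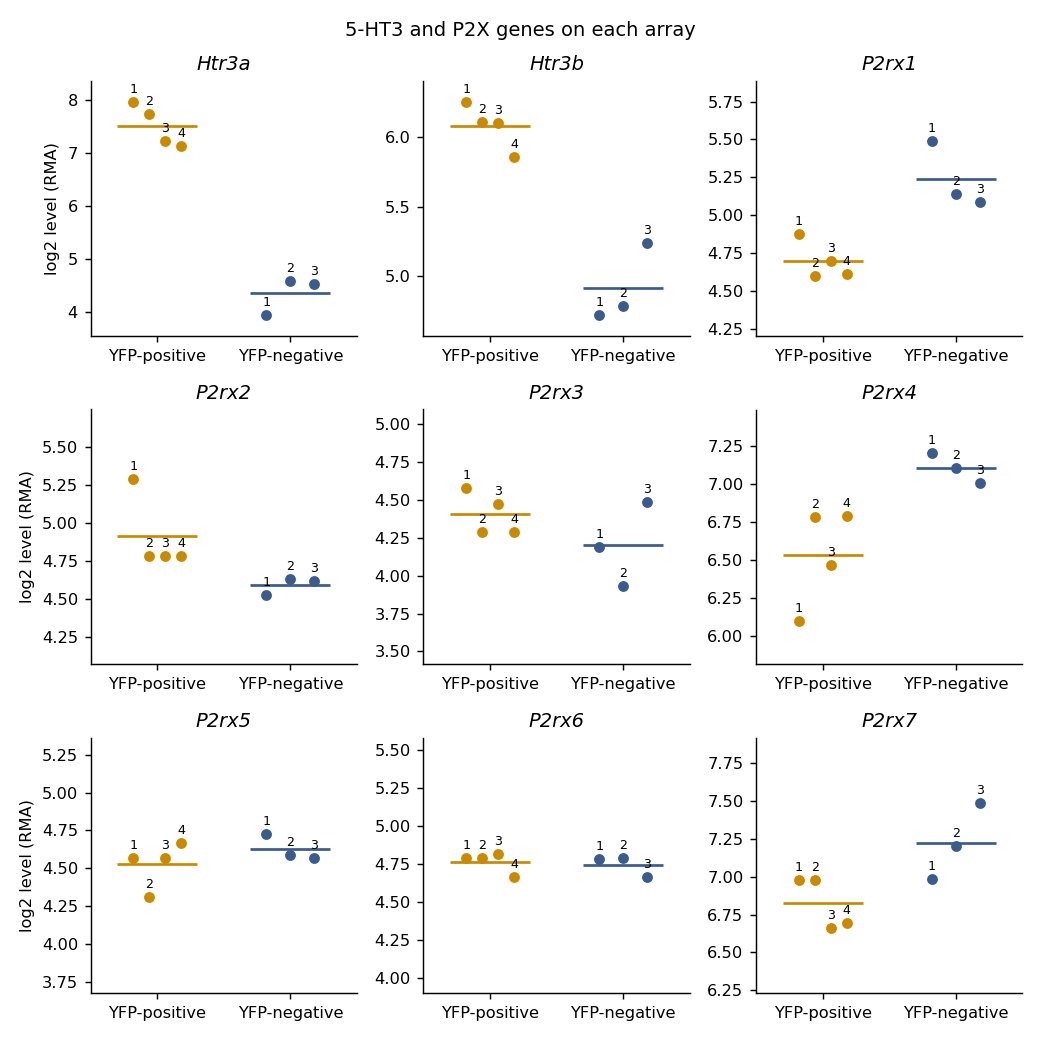
Log2 level (RMA) of each 5-HT3 and P2X gene, 1 point per array with its replicate number, and a line at the group mean. YFP-positive arrays stand left of YFP-negative arrays, and each panel has its own axis range, which is widest for Htr3a. The group means differ by 3.15 for Htr3a and 1.16 for Htr3b, and by 0.02 for P2rx6.

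P2rx1, the P2X channel of smooth muscle and platelets, had log2 levels of 4.88, 4.60, 4.70 and 4.61 on YFP-positive arrays 1 to 4, against 5.49, 5.14 and 5.09 on the YFP-negative arrays. The groups did not overlap, and the highest YFP-positive array was 0.21 below the lowest YFP-negative array. The mean was 4.70 ± 0.13 (SD, n = 4) in YFP-positive cells and 5.24 ± 0.22 (SD, n = 3) in YFP-negative cells, a log2 fold change of -0.54 ± 0.12 SE (limma adjusted p = 0.0200; 95% interval -0.82 to -0.26). P2rx1 no longer passed when either YFP-positive array 2, 3 or 4 was left out or YFP-negative array 2 was (limma adjusted p = 0.0502 to 0.0632), nor when both YFP-positive arrays 3 and 4 were (log2 fold change -0.50, limma adjusted p = 0.139).

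P2rx4, a channel of vessels, epithelia and macrophages, had the same direction without passing. Its log2 levels were 6.10, 6.78, 6.47 and 6.79 on YFP-positive arrays 1 to 4, against 7.20, 7.11 and 7.01 on the YFP-negative arrays. The YFP-positive arrays were all below the YFP-negative arrays and spread more widely, over 0.69 against 0.19. The log2 fold change was -0.57 ± 0.17 SE (limma adjusted p = 0.0675; 95% interval -0.98 to -0.16). It passed with array weights (adjusted p = 0.0427) or with genes of a mean below 5.06 left out (adjusted p = 0.0468), and in 13 other alternatives it did not.

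P2rx7, the channel through which ATP sets off inflammasome signalling in macrophages, had log2 levels of 6.98, 6.98, 6.66 and 6.70 on YFP-positive arrays 1 to 4, against 6.99, 7.20 and 7.48 on the YFP-negative arrays. The groups touched without overlapping, since YFP-positive arrays 1 and 2 and YFP-negative array 1 were nearly equal. YFP-positive arrays 1 and 2 held the very same deposited value, and the lack of overlap rested on that value. The log2 fold change was -0.40 ± 0.14 SE (limma adjusted p = 0.108; 95% interval -0.73 to -0.06), and P2rx7 passed in 0 of 15 alternatives, with adjusted p-values of 0.0637 to 0.406.

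Marker lists of other cell types that the YFP-negative sort could hold differed in how many members passed. All 11 myeloid markers were lower, and the list averaged 5.28, 5.55, 6.08 and 6.17 on YFP-positive arrays 1 to 4, against 8.89 to 9.08 on YFP-negative arrays. Of 7 smooth muscle markers 3 were lower, with a list mean of 8.02, 8.73, 9.33 and 9.75 on YFP-positive arrays 1 to 4, against 9.97 to 10.49 on the YFP-negative arrays. All 7 were lower at an unadjusted limma p under 0.05, where 15.3% of all genes were. In all 7 every YFP-positive array was below every YFP-negative array, as in 13.5% of all genes. Of 4 platelet markers 1 was lower (4.96 to 5.27 on YFP-positive and 5.92 to 6.55 on YFP-negative arrays). Of 7 endothelial markers 2 were lower and 1, Kdr, was higher (5.23 to 5.64 and 6.02 to 6.04), and the epithelial markers, given above, did not pass. Of 7 lymphoid markers 6 were lower (4.82 to 5.01 and 6.26 to 7.22), as were 6 of 8 mast cell markers (3.99 to 4.37 and 6.20 to 6.87) and 6 of 6 fibroblast markers (7.58 to 8.74 and 9.63 to 10.31). Of 7 enteroendocrine markers 0 passed limma's test, with 0 higher and 4 lower at an unadjusted p under 0.05 (6.81 to 7.38 and 7.08 to 8.20). Within the YFP-positive group P2rx1, P2rx4 and P2rx7 differed in their order over the arrays, and so did the lists, the lymphoid mean being lowest on array 4. P2rx1 was highest on array 1, and P2rx7 was highest on arrays 1 and 2, where the myeloid and smooth muscle means were lowest. P2rx4 was lowest on array 1, as the myeloid and smooth muscle means were. Its levels on arrays 2 and 4 were nearly equal (6.78 and 6.79) and that on array 3 was below them (6.47). Both list means, by contrast, rose from each array to the next. The part of these cells in the P2X values was not tested.

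**Figure D2:**
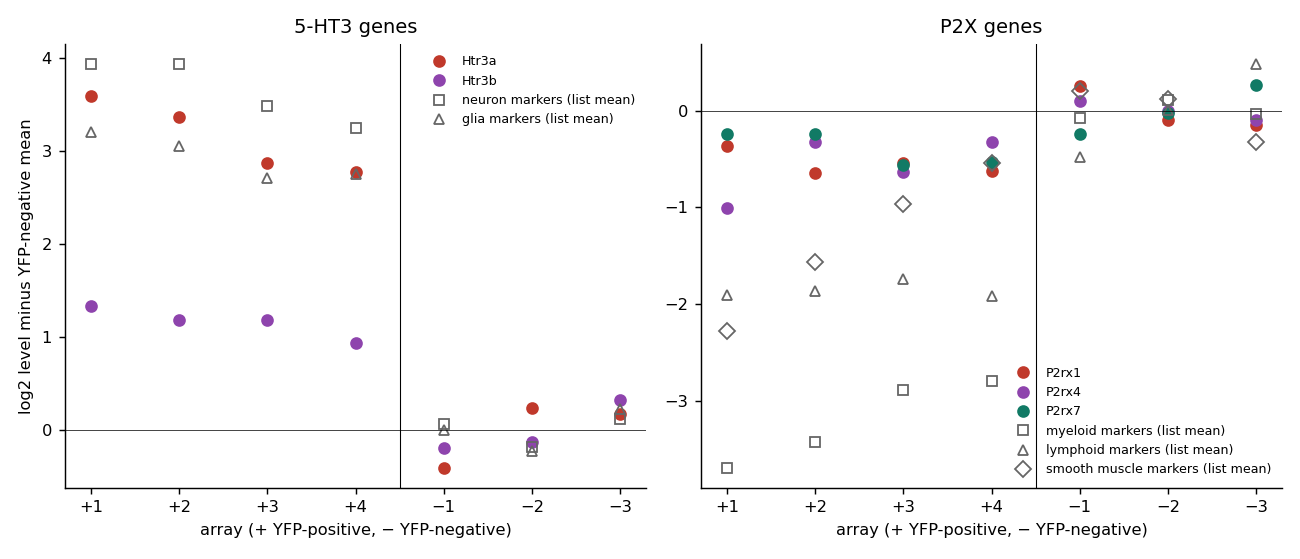
Log2 level on each array minus the YFP-negative mean, for the 5-HT3 genes with the means of the neuron and glia marker lists (left) and for P2rx1, P2rx4 and P2rx7 with those of the myeloid, lymphoid and smooth muscle lists (right). The left panel shows Htr3a between 2.77 and 3.60 above its YFP-negative mean on the YFP-positive arrays, and the right panel shows the 3 P2X genes closer to 0 than the myeloid mean on the YFP-positive arrays.

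The P2X genes best known from neurons had small differences that did not pass. P2rx2 encodes a subunit that forms ATP channels of myenteric neurons alone or together with P2rx3. It had log2 levels of 5.29 on YFP-positive array 1 and 4.79 on YFP-positive arrays 2, 3 and 4, against 4.53, 4.63 and 4.62 on the YFP-negative arrays. All YFP-positive arrays were above the YFP-negative arrays, and arrays 2 to 4 held the very same deposited value. That value also stood for P2rx6 on 3 arrays, and 69 of the genes tested held it on at least 1 array, 9 to 31 genes per array, so the agreement of these P2rx2 arrays is no measure of their precision. The log2 fold change was 0.32 ± 0.14 SE (limma adjusted p = 0.169; 95% interval -0.0027 to 0.64), and it was 0.19 without YFP-positive array 1 (limma adjusted p = 0.0739).

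P2rx3, the ATP channel of sensory neurons, had log2 levels of 4.58, 4.29, 4.47 and 4.29 on YFP-positive arrays 1 to 4, against 4.19, 3.93 and 4.49 on the YFP-negative arrays. The groups overlapped, with YFP-negative array 3 above 3 of the 4 YFP-positive arrays. The log2 fold change was 0.21 ± 0.14 SE (limma adjusted p = 0.393; 95% interval -0.13 to 0.54). A dimmer probe set of P2rx3 read 4.07, 3.63, 3.97 and 4.26 on the YFP-positive arrays, against 3.996 to 4.02 on the YFP-negative arrays, and with both probe sets averaged the log2 fold change was 0.09.

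P2rx5 and P2rx6 had the smallest differences of the family. P2rx5, a subunit that gives weak currents alone and assembles with P2rx1, had log2 levels of 4.57, 4.31, 4.57 and 4.67 on YFP-positive arrays and 4.73, 4.59 and 4.57 on YFP-negative arrays, with a log2 fold change of -0.10 ± 0.10 SE (limma adjusted p = 0.557; 95% interval -0.33 to 0.13). P2rx6, which works mainly in complexes with P2rx2 or P2rx4, had 4.79, 4.79, 4.82 and 4.66 on YFP-positive arrays and 4.78, 4.79 and 4.67 on YFP-negative arrays. Its log2 fold change was 0.02 ± 0.06 SE (limma adjusted p = 0.888), with a 95% interval of -0.13 to 0.17. The groups overlapped for both genes. P2rx1, P2rx2, P2rx3, P2rx5 and P2rx6 had means over all arrays below 5.06, the bound under which the dimmest genes were left out in one alternative, and the fold changes of genes this dim can be understated.

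**Figure D3:**
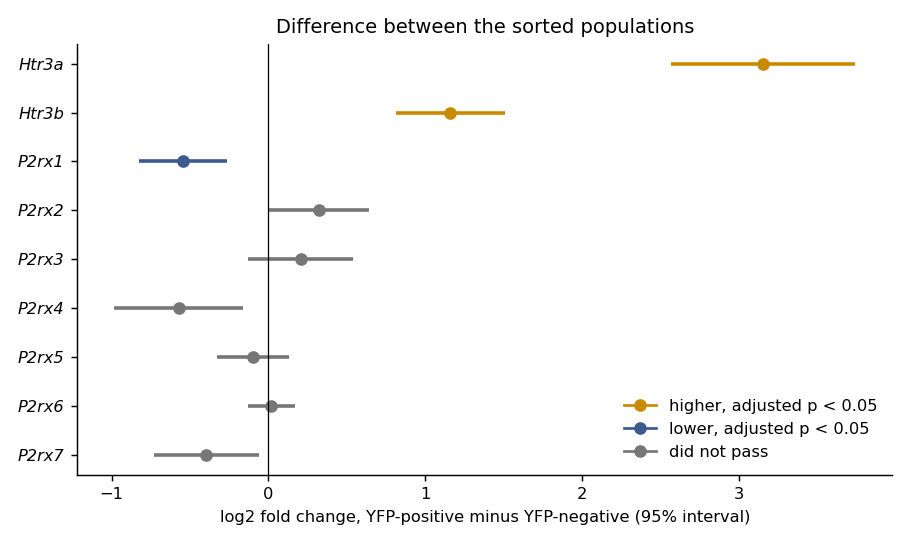
Log2 fold change of each gene, YFP-positive minus YFP-negative, with its 95% interval from limma; colour marks genes past an adjusted p of 0.05. Htr3a and Htr3b lie right of 0, P2rx1 lies left of it at -0.54, and the intervals of P2rx4 and P2rx7 exclude 0 without passing the adjustment over all genes.

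Counted by overlap, 3 of the 9 genes (Htr3a, Htr3b and P2rx2) had every YFP-positive array above every YFP-negative array, and 3 (P2rx1, P2rx4 and P2rx7) had every one below. Over all genes the share was 13.5% in each direction and 26.9% in both together. On 5 of the 9 genes at least 2 arrays had exactly the same value, as did 53.6% of all genes; a repeated value lowers the measured spread of a group, and its cause was not tested.

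The genes with the profile most like each called gene were sought over the 7 arrays, by the root mean square difference of log2 levels after each gene's YFP-negative mean had been subtracted. Genes chosen this way have fold changes close to that of the called gene, so the likeness of these fold changes is no separate result. For Htr3a these were Mab21l1 (0.15), Stk32a (0.16) and the nicotinic subunit gene Chrna5 (0.21), with log2 fold changes of 3.14, 3.19 and 3.08. For Htr3b they were Gas7 (0.09), Tcp11l1 (0.09) and Fbxo7 (0.12), with log2 fold changes of 1.16, 1.07 and 1.12. For P2rx1 they were Slc26a7 (0.07), Pla2g15 (0.08) and Vmn1r33 (0.08), with log2 fold changes of -0.58, -0.50 and -0.54; Pla2g15 did not pass in 7 of the 15 alternatives.

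Of 12 genes for G-protein-coupled serotonin receptors, 2 were higher in YFP-positive cells and 0 lower, with a median log2 fold change of 0.02. Htr2b, a receptor through which serotonin promotes the development of enteric neurons, was higher by 1.64 ± 0.15, and Htr4, a target of prokinetic drugs, by 0.40 ± 0.10 (log2 fold change ± SE; limma adjusted p = 0.000526 and 0.0321). Htr4 did not pass in any fit that left out 1 array, other than the one without YFP-positive array 3 (limma adjusted p of up to 0.115). Of 8 genes of serotonin synthesis, transport and breakdown 1 was higher and 0 lower: the vesicular monoamine transporter gene Slc18a2, at 1.97 ± 0.25 (limma adjusted p = 0.00187). Beside these counts of 2 of 12 and 1 of 8, 8.39% of all genes tested were higher and 9.11% lower. Of 2 chaperone genes Ric3, which assists the assembly of nicotinic and 5-HT3 receptors, was higher by 0.77 ± 0.10 (limma adjusted p = 0.00256), and both passed without YFP-negative array 1 or with the quantile normalization repeated.

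Genes of ATP signalling outside the P2X family changed in both directions, where 8.39% of all genes tested were higher and 9.11% lower. Of 7 genes for P2Y receptors, which are G-protein-coupled receptors for nucleotides, 0 were higher and 4 lower, with a median log2 fold change of -1.17: P2ry6 (-1.56 ± 0.08), P2ry13 (-1.32 ± 0.21), P2ry14 (-1.19 ± 0.24) and P2ry12 (-1.17 ± 0.11), with limma adjusted p-values of 7.00e-05 to 0.0150. P2ry14 did not pass once YFP-positive array 2 was left out (limma adjusted p = 0.0516), nor once both arrays 3 and 4 were (0.0685). These 4 receptors are known from macrophages and other blood-derived cells. The myeloid list given above was also lower in YFP-positive cells, as were most markers of the lymphoid, mast cell and fibroblast lists. The part of these cells in the P2Y values was not tested. Of 7 ectonucleotidase genes, whose products break down extracellular nucleotides, 1 was higher and 2 were lower. Entpd2, known from enteric glia, was higher by 0.99 ± 0.18, while Entpd1, known from leukocytes and endothelium, was lower at -2.23 ± 0.29, and Nt5e, which makes adenosine, at -0.72 ± 0.15 (limma adjusted p = 0.00885, 0.00226 and 0.0180). Nt5e did not pass when any one of the YFP-negative arrays or YFP-positive array 3 was left out (limma adjusted p of up to 0.0684), and Entpd2 did not when both YFP-positive arrays 3 and 4 were (0.0576). Of 4 genes for ATP release, the vesicular nucleotide transporter and the pannexins, 0 passed limma's test and 1, Panx1, had an unadjusted p under 0.05 (0.0146; log2 fold change 0.37 ± 0.11); the count that passed was 1 without YFP-positive array 4 and 1 without arrays 3 and 4.

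**Figure D4:**
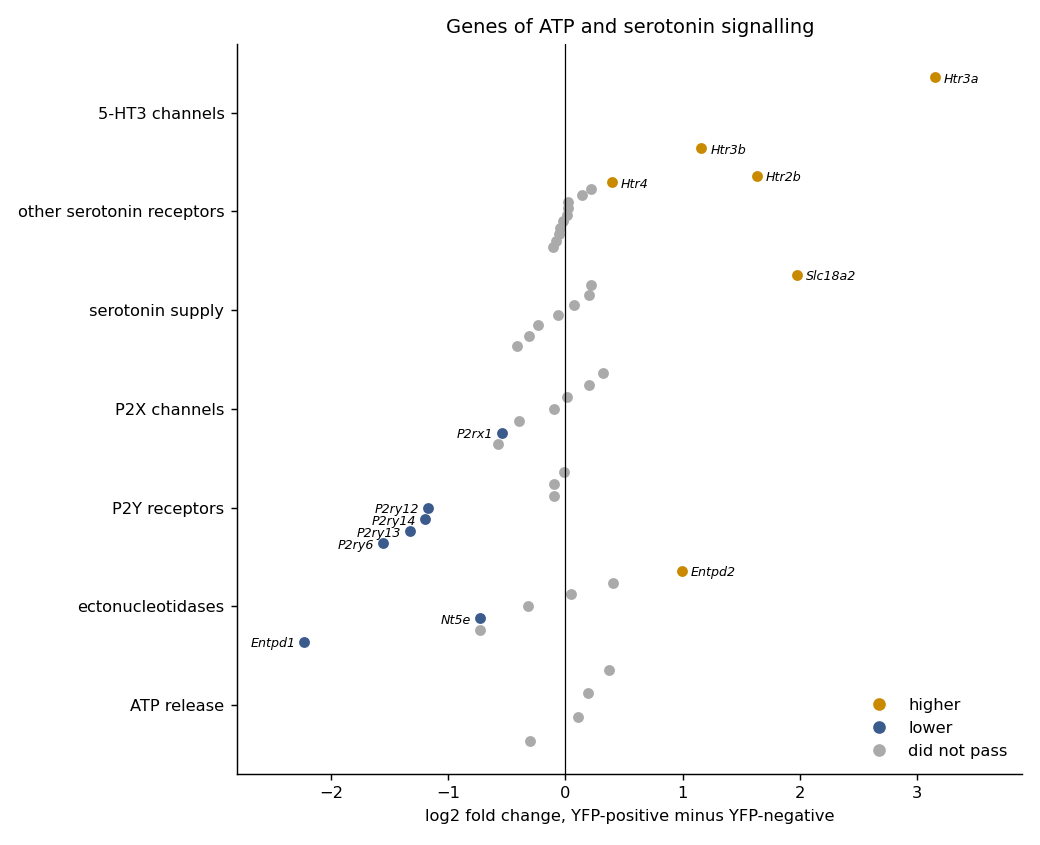
Log2 fold change, YFP-positive minus YFP-negative, of the genes of ATP and serotonin signalling, 1 point per gene, grouped by role. Genes past an adjusted p of 0.05 are coloured and named. The 5-HT3 genes reach 3.15, the P2X genes stay between -0.57 and 0.32, and 4 P2Y genes lie below -1.

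Among other ligand-gated channels, the nicotinic subunits, of the same superfamily as the 5-HT3 subunits, were higher in 6 of 16 cases and lower in 0. Their largest log2 fold changes were those of Chrna3 (5.10), Chrnb4 (4.21), Chrna5 (3.08) and Chrnb2 (1.66). AMPA and kainate glutamate receptor subunits were higher in 6 of 9 cases and lower in 0, led by Grik2 (16.0-fold higher), then Gria2, Gria4 and Grik3, with log2 fold changes of 3.18, 2.89 and 2.75. GABA-A and glycine receptor subunits had 1 of 21 higher, Gabrg3 (1.31), and 1 lower, Gabra3 (-0.81), which did not pass once YFP-positive arrays 3 and 4 were left out (limma adjusted p = 0.0569). Among the P2X genes 0 of 7 were higher by the same limma test, where 8.39% of all genes tested were. The difference between families was not tested.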

How the data were processed

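RNA was amplified from small amounts with a whole-transcriptome kit and hybridised to Affymetrix mouse gene arrays, per the labels' protocols. The authors deposited 1 log2 level per probe set and array, from RMA in Affymetrix Expression Console per the submitters' processing notes, with versions not given in the sources used here. RMA makes the distributions of arrays alike, and both it and the amplification can compress differences; no detection calls were used. All columns were matched to samples (0 unmatched). Of 35556 probe sets the platform annotation gave 21789 a single gene symbol, 1621 several and 12146 no entry, and the brightest probe set stood for each of 19938 genes. Groups were compared with limma 3.58.1 in R 4.3.3 (lmFit and eBayes, group as the only term), after the code was tested on simulated data. Python 3.11.15, pandas 2.3.3, numpy 2.4.6, scipy 1.17.1 and matplotlib 3.10.9 served for the rest. Array medians over genes were 5.87 to 5.92, and the number of arrays limits precision. The 9 genes, the lists, the tests and the alternatives were chosen with earlier results of these data known. Named are all 9 genes, up to 4 called genes of each pathway list by size, and the 3 genes most like each called member; genes named outside this rule (Gfap, Krt18, Kdr, Panx1) were chosen after their values were seen. Listed genes that could not be read from the table were not analysed here. The 15 alternatives were other eBayes options, scalings, a filter on low means, averaged probe sets, array weights, the replicate number as a block, and arrays left out.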

Additional observations from a re-analysis of the deposited data

Results flagged for a closer look

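On 3 of 38 genes examined, 1 YFP-positive array stood far from the other 3 by Dixon's gap ratio, which chance alone does in about 1 of 20 groups. P2rx2 read 5.29 on YFP-positive array 1, above the shared value of 4.79 on the other 3. With these 3 values equal, any other value on array 1 would have been flagged, so the rate of 1 of 20 does not apply to P2rx2. Gria2 had 7.29 on YFP-positive array 2, against 6.89, 6.81 and 6.85 on arrays 1, 3 and 4. Fbxo7, one of the genes closest to Htr3b in profile, read 7.79 on YFP-positive array 1, against 7.63, 7.59 and 7.61 on arrays 2 to 4.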

How the results depend on the processing

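Htr3a and Htr3b were called higher in all 15 alternatives, with log2 fold changes of 2.95 to 3.48 and 1.06 to 1.32, so the count of higher genes was 2 in each. The count of lower genes, 1 in the reported fit, was 2 with array weights, 0 without YFP-positive arrays 3 and 4, and 0 to 1 when each array was left out in turn. P2rx6 changed sign, to -0.0064 with array weights and to -0.021 without YFP-negative array 3, in a range of -0.021 to 0.052 when each array was left out. Leaving out YFP-negative array 2 lowered the number of genes called lower to 1166, against 1817 with all arrays. Same-numbered arrays did not deviate together (correlations over genes of 0.01, -0.09 and 0.04), and arrays of unlike numbers gave -0.16 to 0.27. These correlations cannot show whether same-numbered samples came from the same embryos, which the labels do not state. The reported fit did not take the replicate numbers as pairs. With the replicate block, the log2 fold changes were 3.28 for Htr3a, 1.23 for Htr3b and -0.52 for P2rx1, all past the threshold, and the count of higher genes was 2 and of lower genes 1. YFP-positive array 4 has no YFP-negative array of its number, so these log2 fold changes equal those of the fit without it. In that fit, with no block, P2rx1 did not pass (limma adjusted p = 0.0561). The block ended the calls of Htr4 (limma adjusted p = 0.123), P2ry14 (0.0792) and Pla2g15 (0.107), which left 1 serotonin G-protein-coupled receptor gene higher and 3 P2Y genes lower. A filter on genes with a mean below 5.06 removed P2rx1, P2rx2, P2rx3, P2rx5 and P2rx6, which therefore have no value there.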
